A study of Arabidopsis thaliana with 16 samples.

Results

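The endoplasmic reticulum (ER) body genes described here are NAI1 (AT2G22770), NAI2 (AT3G15950) and BGLU25 (AT3G03640) of Arabidopsis thaliana. They are 3 of the 13286 genes that the array's annotation names by a probe set of a single gene, and each is read by 1 probe set. The 3 genes were selected on their measured levels in these same arrays, so their levels are given as a description with no test. Their identifiers on the array are 266456_at, 257798_at and 259173_at. All 3 passed the filter on low values described below, as did 8902 of the 13286 genes. RNA was measured on 16 Affymetrix arrays, each of 1 population of sorted root cells from Columbia seedlings grown for 6 days and then kept for 24 h on iron-free medium with 0.3 mM ferrozine, an iron chelator. Roots were digested to protoplasts, from which fluorescent cells of 5 GFP reporter lines were sorted. WER::GFP marked epidermis with lateral root cap (n = 4 arrays), PET111 the columella root cap (n = 3), a reporter labelled CORTEX the cortex (n = 3), SCR::GFP the endodermis with quiescent center (n = 3) and WOL::GFP the stele, the central cylinder with the vascular tissue (n = 3). The first and the fourth are called epidermis and endodermis below, although each holds a second tissue. Each population rests on 1 reporter line, and cell type and reporter cannot be told apart. All 5 populations came from iron-deficient roots, so no value measures what iron deficiency itself does to a gene.

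ER bodies are spindle-shaped compartments of the ER found in Brassicaceae, and in Arabidopsis roots they are present without wounding. They store beta-glucosidases with an ER retention signal, of which PYK10 is the main one in roots, and are linked to chemical defence through the hydrolysis of glucosides when cells are broken. NAI1 is a basic helix-loop-helix transcription factor needed for ER bodies to form and for the expression of PYK10 and NAI2. NAI2 is a protein of the ER body itself and is needed for its formation. BGLU25 is a beta-glucosidase that groups by sequence with PYK10 and the other ER body beta-glucosidases.

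Values are the deposited linear MAS5 signals, all arrays having been scaled to the same trimmed mean. Differences are on a log2 scale after adding 10.21 to each signal, and probe sets at or above 38.05 in at least 3 arrays were tested with limma (16221 of 22810). Median signals ran from 50.02 to 81.1 over the arrays, and precision is limited by how many arrays a population has. Epidermis replicate 4 stood apart from its group: across the tested probe sets it correlated at 0.894 to 0.938 with the other epidermis arrays, which correlated at 0.970 to 0.981 with each other, and at 0.839 to 0.868 with the cortex arrays. Of 18 listed markers of cell types the annotation named 5, and 4 were tested. RCPG, a root cap polygalacturonase, averaged 7529 ± 532 in columella, SGN1, a kinase of the endodermal barrier, 6265 ± 1378 in endodermis, and AT1G09750, a cortex marker, 836 ± 497 in cortex (SD, n = 3 each). The corresponding highest mean in any other population was 2012 for RCPG, in epidermis, which holds the lateral root cap, 645 for SGN1, in stele, and 56.9 for AT1G09750, in endodermis. EXPA7, a root hair expansin, did not separate epidermis from cortex (335 ± 130 in 4 epidermis arrays, 386 ± 322 in 3 cortex arrays). CO2, a cortex gene, averaged 5.4 to 26.8 in every population, cortex included at 12.9, and was not tested. None of the 5 listed stele markers was named, so the stele label was not checked.

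NAI1, the transcription factor, was high in the outer populations and lowest in endodermis. Its signal was 506, 311, 439.7 and 457 in epidermis, while columella read 442, 365 and 472, cortex 131, 278 and 219.6, endodermis 11.3, 85.5 and 30.9 and stele 150.0, 116 and 134. Every epidermis and columella array lay above every array of the other 3 populations, and every endodermis array lay below all others. The means were 429 ± 83.3 in epidermis (SD, n = 4), 426 ± 54.9 in columella, 209 ± 74.2 in cortex, 42.6 ± 38.4 in endodermis and 133 ± 17.3 in stele (SD, n = 3 each). Epidermis and columella overlapped and differed by -0.01 on the log2 scale (SE 0.37), and cortex and stele overlapped as well (difference 0.56, SE 0.39). The order was therefore epidermis and columella together, then cortex and stele together, then endodermis. Set against the mean of the other 4 populations, NAI1 was at 1.48 (SE 0.28) in epidermis and -2.64 (SE 0.31) in endodermis. In a sample of pooled cells, fewer expressing cells and less RNA per cell cannot be told apart, which holds for every level given here.

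NAI2, the ER body protein, was the one of the 3 that separated epidermis from columella. Its signal was 6306, 5328, 5007 and 4491 in epidermis, while columella read 2747, 2947 and 1638, cortex 1384, 3522 and 3329, endodermis 369, 415 and 279.7 and stele 702, 949.5 and 651. No epidermis array overlapped any other array, and no endodermis array did either. The means were 5283 ± 764 in epidermis (SD, n = 4), 2444 ± 706 in columella, 2745 ± 1183 in cortex, 355 ± 68.8 in endodermis and 767 ± 160 in stele (SD, n = 3 each). Cortex and columella could not be ordered, since their arrays overlapped and they differed by 0.10 (log2, SE 0.31). Epidermis lay above cortex by 1.05 (SE 0.29) and above columella by 1.14 (SE 0.29), and stele above endodermis by 1.09 (SE 0.31). Cortex replicate 1 held much of the distance to epidermis: without it the cortex mean was 3426 and epidermis minus cortex was 0.61. The stele stood nearer to endodermis than to any other population for NAI2.

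BGLU25, the beta-glucosidase, fell into 4 levels whose arrays did not overlap. Its signal was 2166, 3155, 2805 and 2364 in epidermis, while columella read 2075, 3009 and 2698, cortex 514, 771 and 877, endodermis 195, 132 and 187 and stele 228, 477 and 291. Epidermis and columella shared the top level, with means of 2622 ± 444 (SD, n = 4) and 2594 ± 476 (SD, n = 3) and a difference of 0.02 (log2, SE 0.25). Cortex, at 721 ± 186, lay 1.87 below epidermis (SE 0.25), and every cortex array was below every array of both top populations. The lowest means were 172 ± 34.2 in endodermis and 332 ± 130 in stele (SD, n = 3 each). Stele exceeded endodermis by 0.86 (SE 0.27) with no overlap, the smallest step between non-overlapping neighbours for BGLU25.

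**Figure D1:**
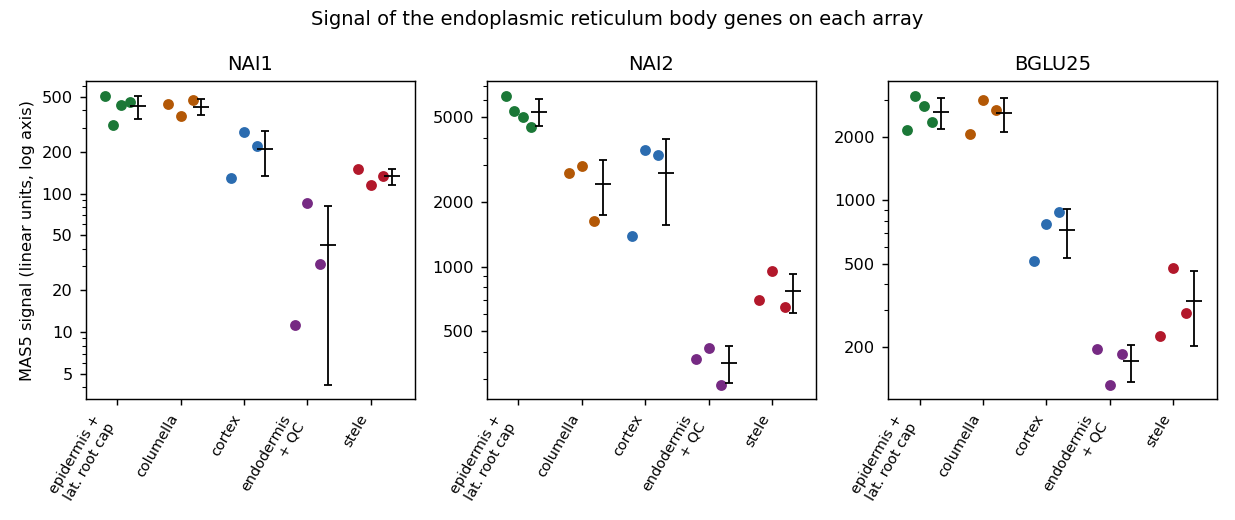
Deposited MAS5 signal (log axis) of NAI1, NAI2 and BGLU25 on each of the 16 arrays by population, arrays as coloured points in replicate order and mean ± SD as black bars. For all 3 genes the 3 endodermis arrays lie below the other 13, and for NAI1 and BGLU25 the epidermis and columella arrays lie above the rest.

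The 3 genes had in common the lowest mean in endodermis and, by mean signal, the highest in epidermis. For NAI1 and BGLU25 epidermis and columella overlapped and could not be ordered (log2 difference -0.01, SE 0.37, and 0.02, SE 0.25). The ratio of the epidermis mean to the endodermis mean was 10.1 for NAI1, 14.9 for NAI2 and 15.3 for BGLU25. The median ratio of highest to lowest population was 3.13 over all tested probe sets. The ratio of NAI1 rests on low endodermis signals and was 20.3 without endodermis replicate 2 and 7.36 without endodermis replicate 1, so the 3 ratios have no settled order. Leaving out single arrays gave 13.5 to 16.3 for NAI2 and 13.7 to 16.4 for BGLU25. A highest mean in epidermis with a lowest in endodermis was found in 6.73% of tested probe sets, and 4.64% had every endodermis array below every other array. Every epidermis and columella array lay above every other array, as for NAI1 and BGLU25, in 2.81%. The 3 genes were selected on their levels in these same arrays, so these patterns are a description and no result about them. They differed in columella and cortex: NAI1 and BGLU25 had epidermis and columella as their highest 2 populations, a pair that leads in 14.7% of tested probe sets. NAI2 had epidermis alone at the top, cortex and columella following in no settled order: the cortex mean of 2745 exceeded the columella mean of 2444, but was 2356 without cortex replicate 2. Columella minus the mean of the other 4 was 1.49 (SE 0.31) for NAI1, 0.78 (SE 0.24) for NAI2 and 2.16 (SE 0.21) for BGLU25. Cortex minus the mean of the other 4 was 0.19 (SE 0.31) for NAI1, 0.90 (SE 0.24) for NAI2 and -0.15 (SE 0.21) for BGLU25. Stele minus the mean of the other 4 was -0.52 (SE 0.31) for NAI1, -1.26 (SE 0.24) for NAI2 and -1.56 (SE 0.21) for BGLU25, so all 3 lay under that mean in stele, while every stele array was above every endodermis array. Without epidermis replicate 4 the epidermis means were 419 for NAI1, 5547 for NAI2 and 2709 for BGLU25, so the array that stood apart moved none of them by more than the spread of the group.

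Replicates of a population varied more for NAI1 than for the other 2 genes. The pooled SD within populations was 0.55 (log2) for NAI1, 0.43 for NAI2 and 0.35 for BGLU25, and the median over all tested probe sets was 0.37. Most of the spread of NAI1 lay in endodermis, where replicate 1 was 1.03 below and replicate 2 was 1.12 above the population mean. Replicate 1 read 11.3, close to the low end of the signal range, and replicate 2 read 85.5, near the median signal of that array (81.1). Cortex replicate 1 was the one array in which all 3 genes lay well under the mean of their population, at -0.58 for NAI1, -0.87 for NAI2 and -0.44 for BGLU25. In the same array EXPA7 read 147, against 752 and 260.0 in cortex replicates 2 and 3, and AT1G09750 read 1409, against 533 and 565. The part of these 2 markers in the low values of cortex replicate 1 was not tested. Across the 16 arrays the log2 levels correlated at 0.87 between NAI1 and NAI2, 0.86 between NAI1 and BGLU25, and 0.90 between NAI2 and BGLU25 (Pearson), the points sharing their population. With population means removed the 3 values were 0.31, -0.31 and 0.40.

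**Figure D2:**
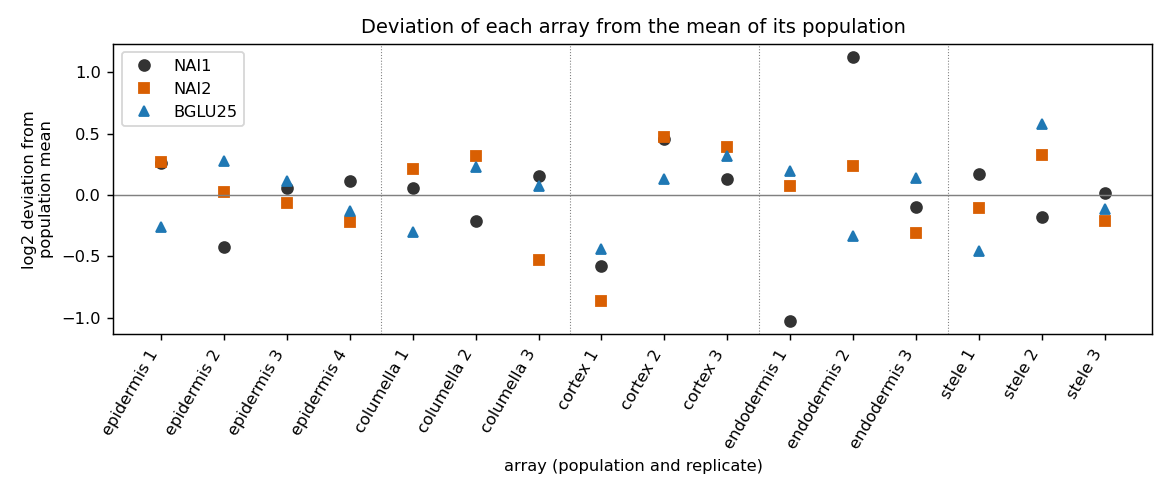
Deviation of each array from the mean of its population, on the log2 scale, for NAI1 (circles), NAI2 (squares) and BGLU25 (triangles), dotted lines separating populations. All 3 genes are low in cortex replicate 1, and the endodermis arrays of NAI1 span -1.03 to 1.12.

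To place the 3 genes among others of the ER body and of related pathways, 102 further genes in 10 lists were followed. The annotation named 24 of them and 18 passed the filter. BHLH25 and BGLU45 passed only by counting arrays of their highest population, epidermis and cortex, so a difference among populations was built into their selection. BGLU45 is among the genes counted below as differing, as higher in cortex, and as lower in epidermis and columella. Of the 18, 15 differed among the 5 populations at an adjusted p under 0.05 in limma's moderated F test, close to the 82.2% of all tested probe sets. Against the mean of the other 4 populations, 8 were higher and 3 lower in epidermis, where 25.9% of all tested probe sets were higher and 25.9% lower. In columella 6 were higher and 2 lower (22.8% and 24.4% of all), and in cortex 9 were higher and 3 lower (18.6% and 28.2% of all). In endodermis 1 was higher and 10 were lower (23.2% and 19.9% of all), and in stele 3 were higher and 3 lower (15.9% and 11.2% of all). The median difference of the 18 was 0.48 in epidermis, 0.17 in columella, 0.49 in cortex, -0.83 in endodermis and 0.07 in stele, where the medians of all tested probe sets were 0.03, -0.03, -0.17, 0.05 and 0.05. After quantile normalization the medians of all were 0.10 in epidermis, -0.06 in cortex and -0.07 in endodermis. In endodermis 3174 tested probe sets were then higher and 3969 lower, against 3762 and 3228 with the deposited scaling. The shares of all given beside the counts in endodermis thus depend on the scaling. Of the 18 genes, 10 were thus lower in endodermis, and 7 were when endodermis replicate 2 was left out. The lists were chosen with earlier results of these data known, so these counts are a description and no independent result. TSA1, MEB1 and MEB2, other genes of ER body formation, were not named and not analysed here.

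**Figure D3:**
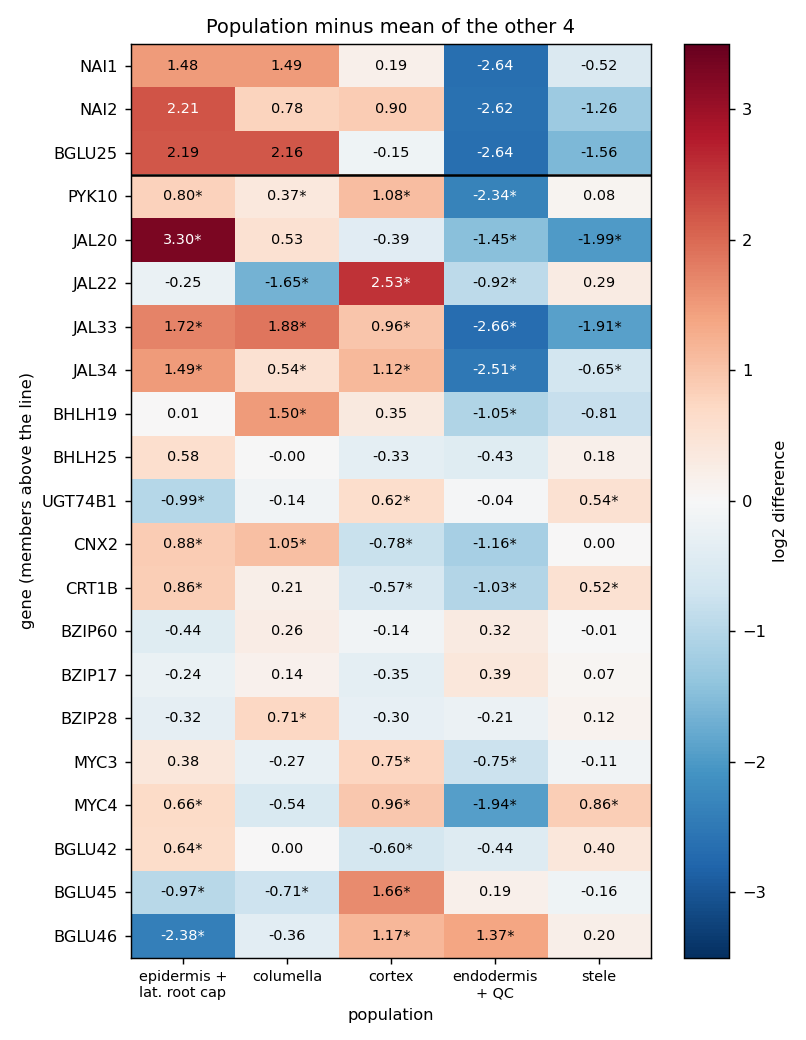
Difference of a population from the mean of the remaining 4 (log2, colour and number) for NAI1, NAI2 and BGLU25 above the line and 18 listed genes below it; an asterisk marks an adjusted p under 0.05 in limma for the listed genes, and the 3 genes above the line carry no test. Endodermis is the column with most low values, and PYK10 is low there and at 0.08 in stele.

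PYK10 (BGLU23), the main ER body beta-glucosidase of roots, was low in endodermis like the 3 genes, and its stele level lay near the mean of the other populations. Its signal was 7436, 6735, 6767 and 9766 in epidermis, while columella read 6624, 5731 and 5628, cortex 8738, 8584 and 9293, endodermis 1277, 1597 and 1123 and stele 5353, 5490.3 and 4476. Every endodermis array lay below every other array, and cortex and epidermis overlapped at the top. The means were 7676 ± 1430 in epidermis (SD, n = 4), 5994 ± 548 in columella, 8872 ± 373 in cortex, 1332 ± 242 in endodermis and 5106 ± 550 in stele (SD, n = 3 each). In limma PYK10 was lower in endodermis, at -2.34 on the log2 scale against the mean of the other 4 populations (SE 0.14, adjusted p = 1.8e-09), and higher in cortex by 1.08 (adjusted p = 1.11e-05) and in epidermis by 0.80 (adjusted p = 4.99e-05). Columella was higher by 0.37 (adjusted p = 0.0348), a call lost without any 1 of the 3 columella arrays (adjusted p = 0.0615 to 0.165), without stele replicate 3 (0.0522), without the filter (0.0639) and without an intensity trend (0.0717). Stele gave 0.08 (adjusted p = 0.71). Stele exceeded endodermis 3.83-fold by the means for PYK10 (adjusted p = 3.02e-06 in limma), beside 3.13-fold for NAI1, 2.16-fold for NAI2 and 1.93-fold for BGLU25, differences between genes that were not tested. For NAI1 this fold was 6.30 without endodermis replicate 2, above that of PYK10, and 2.29 without endodermis replicate 1.

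Of 12 listed jacalin-related lectins and other genes of the PYK10 complex, the proteins that bind PYK10 when tissue is broken, 4 were tested and all 4 were lower in endodermis, beside 19.9% of all tested probe sets. The call for JAL22 was lost with a pseudocount of 1 (adjusted p = 0.0805) and without endodermis replicate 2 (adjusted p = 0.0882), which leaves 3. This list too was chosen with earlier results of these data known, so the count is a description. JAL34 followed NAI2 most closely of all genes named singly. Its signal was 8524, 11301, 8992 and 10396 in epidermis, while columella read 5699.8, 6799 and 4973, cortex 5881, 9249 and 9313, endodermis 1241, 913 and 1041 and stele 2232, 3864 and 3052. Epidermis had the highest mean, and cortex and columella overlapped (difference 0.46, SE 0.22, adjusted p = 0.0959 in limma), as they did for NAI2. Unlike for NAI2, epidermis and cortex overlapped as well (difference 0.29, SE 0.21, adjusted p = 0.27 in limma). Cortex replicate 1 was again the low array of its group. In limma JAL34 was higher in epidermis by 1.49 (SE 0.16, adjusted p = 7.75e-07) and in cortex by 1.12 (adjusted p = 7.91e-05), and lower in endodermis at -2.51 on the log2 scale (adjusted p = 1.3e-08). Its lower level in stele (-0.65, adjusted p = 0.0106) and higher level in columella (0.54, adjusted p = 0.0169) were each lost without 1 array, stele replicate 1 or columella replicate 2.

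JAL33 had its highest means in epidermis and columella, as NAI1 and BGLU25 had. It read 3215, 2369.5, 3516 and 4074 in epidermis, while columella read 3995, 4467 and 2465, cortex 2422, 1847 and 2115, endodermis 196, 459.6 and 229 and stele 328, 516 and 440.2. Endodermis and stele overlapped at the bottom, well under the other 3 populations. Unlike for NAI1 and BGLU25, epidermis and cortex overlapped (difference 0.61, SE 0.28, adjusted p = 0.0815 in limma). Columella lay above cortex by 0.74 (SE 0.30, adjusted p = 0.0495). In limma JAL33 was higher in epidermis by 1.72 (SE 0.21), in columella by 1.88 (SE 0.23) and in cortex by 0.96 (SE 0.23), and lower in endodermis at -2.66 (adjusted p = 3.7e-06, 4.23e-06, 0.00301 and 1.9e-07).

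JAL20 stood out by its step from epidermis to every other population. It read 6961, 7355, 6750.3 and 5069.6 in epidermis, while columella read 1513, 1984 and 886, cortex 544, 1062 and 969, endodermis 347, 564 and 481 and stele 284, 444 and 299. The epidermis exceeded columella 4.47-fold by the means (log2 difference 2.21, SE 0.28, adjusted p = 8.49e-06 in limma), and the lowest epidermis array was more than any other array. Stele, not endodermis, was the lowest, at 342 ± 88.4, against 464 ± 110 in endodermis, and those arrays overlapped (SD, n = 3 each).

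JAL22 was a cortex gene. It read 208, 178 and 149 in cortex, and between 1.92 and 72.1 on all 13 other arrays. Cortex exceeded the mean of the other 4 by 2.53 (SE 0.29, adjusted p = 3.41e-06 in limma), and columella was lower at -1.65 on the log2 scale (adjusted p = 0.000146) with signals of 1.92 to 16.3, under the filter value. In endodermis it was at -0.92 (adjusted p = 0.0161), the call that did not hold under every setting. JAL22 correlated with NAI1, NAI2 and BGLU25 at -0.03, 0.15 and -0.19 over the 16 arrays, far under JAL33 and JAL34, which reached 0.83 to 0.96. JAL23, of the same list, stayed at or below 30.1 on every array and was not tested.

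**Figure D4:**
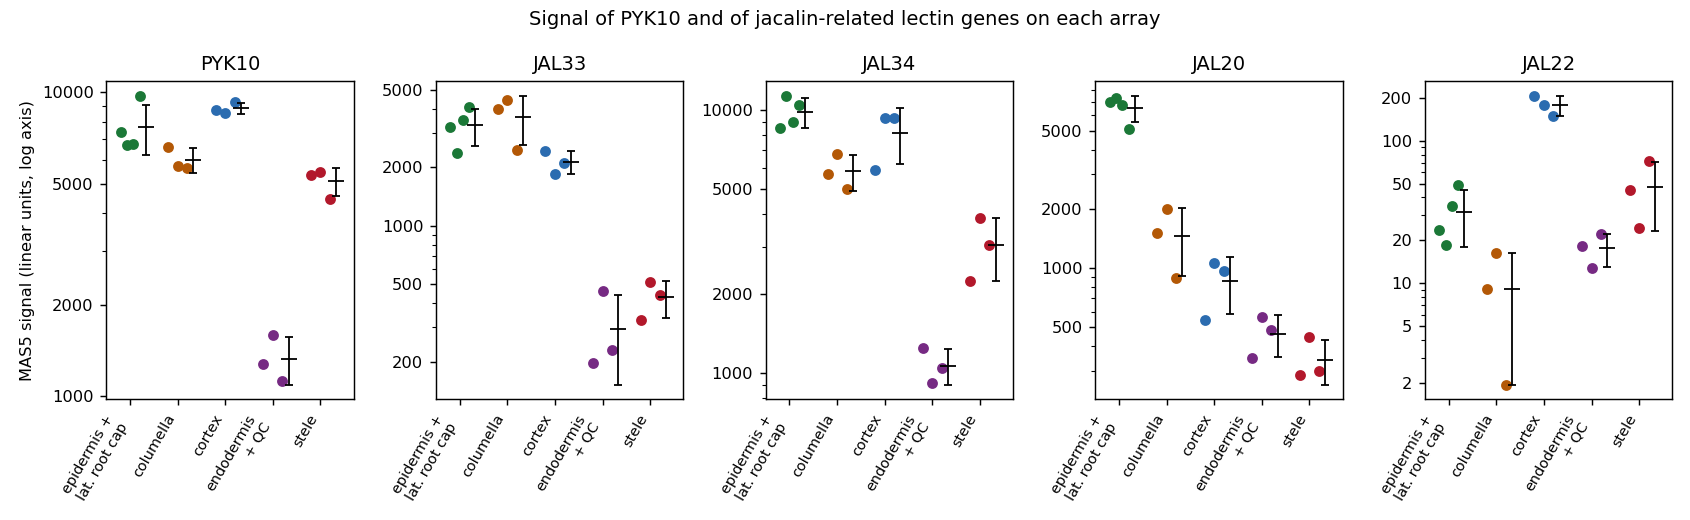
Deposited MAS5 signal (log axis) of PYK10, JAL33, JAL34, JAL20 and JAL22 on each of the 16 arrays by population, arrays as points in replicate order and mean ± SD as black bars. The endodermis arrays are lowest for PYK10 and JAL34, JAL20 is highest in epidermis at 5069.6 and above, and JAL22 is highest in cortex.

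Among the 3 basic helix-loop-helix relatives of NAI1, BHLH19 (AT2G22760) was highest in columella, at 425, 333 and 395. It read 206, 200.4, 80.3 and 204 in epidermis, while cortex read 182, 278 and 150.4, endodermis 126, 51.3 and 93.7 and stele 58.4, 183 and 87.9. The columella arrays lay above all others. Among the other 4 populations every pair overlapped except cortex and endodermis, where cortex was higher by 1.12 (log2, SE 0.40, adjusted p = 0.0311 in limma). In limma BHLH19 was higher in columella by 1.50 (SE 0.31, adjusted p = 0.000784) and lower in endodermis at -1.05 on the log2 scale (adjusted p = 0.0124), the second call being lost without endodermis replicate 2 (adjusted p = 0.124). In epidermis, where NAI1 was at a level like that in columella, BHLH19 was at 0.01 (adjusted p = 0.97 in limma). BHLH25 did not pass the F test (adjusted p = 0.15), with means of 27.5 to 51.6, and BHLH18 stayed at or below 42.4 and was not tested.

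Of 17 listed ER chaperones and genes of the unfolded protein response, 5 were tested. The chaperones CNX2, a calnexin, and CRT1B, a calreticulin, which help glycoproteins fold in the ER, were high in epidermis and low in endodermis. CNX2 averaged 464 ± 70.0 in epidermis (SD, n = 4), 519.7 ± 151 in columella, 178 ± 28.6 in cortex, 143 ± 31.1 in endodermis and 279 ± 28.8 in stele (SD, n = 3 each). It was higher in epidermis by 0.88 and in columella by 1.05, and lower in endodermis at -1.16 on the log2 scale (adjusted p = 0.000344, 0.000173 and 0.000104 in limma). CNX2 was the only listed gene of the 18 with every epidermis and columella array above every other array, as for NAI1 and BGLU25. Of all tested probe sets 2.81% had this pattern. CRT1B averaged 5289.6 ± 1342 in epidermis, 4372 ± 1034 in stele and 1809 ± 56.1 in endodermis, and was higher in epidermis by 0.86 (adjusted p = 0.000132) and lower in endodermis at -1.03 on the log2 scale (adjusted p = 9.59e-05). In stele CRT1B was higher by 0.52 (adjusted p = 0.0245), a call lost without stele replicate 1 or 3. Both chaperones were also lower in cortex, CNX2 at -0.78 and CRT1B at -0.57 (adjusted p = 0.00272 and 0.00965 in limma). The difference between cortex and endodermis was not called for either (adjusted p = 0.32 and 0.16 in limma). For CRT1B the arrays of these populations did not overlap, cortex lying above endodermis by 0.37 (log2, SE 0.21). The regulators BZIP60 and BZIP17, transcription factors of the unfolded protein response, did not pass the F test (adjusted p = 0.21 and 0.26 in limma). BZIP28, another one, was higher in columella by 0.71 (SE 0.19, adjusted p = 0.00405), with 878 ± 34.3, and at -0.32 in epidermis and -0.21 in endodermis (adjusted p = 0.11 and 0.37).

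Jasmonate is a hormone that induces ER bodies in leaves, and 2 of the 21 genes listed for its synthesis and response were tested. MYC4, a transcription factor of the jasmonate response, was lower in endodermis at -1.94 on the log2 scale (SE 0.26, adjusted p = 1.55e-05 in limma), where it read 4.75, 4.26 and 12.9, under the filter value on each array. It read 44.5, 65.0, 56.6 and 89.9 in epidermis, while columella read 38.0, 19.7 and 25.1, cortex 67.4, 64.8 and 95.8 and stele 103, 44.0 and 76.0. All endodermis arrays of MYC4 lay below the others, while columella, high for NAI1 and BGLU25, was its second lowest population. MYC3 was lower in endodermis at -0.75 (log2) and higher in cortex by 0.75 (adjusted p = 0.0192 and 0.0172), and both calls were lost without single arrays of those populations (endodermis replicate 2, cortex replicate 1 or cortex replicate 3). Of 19 listed genes of indole glucosinolate synthesis, whose products ER body enzymes can hydrolyse, UGT74B1, a glucosyltransferase of the pathway, was tested. It was lower in epidermis at -0.99 on the log2 scale (SE 0.16, adjusted p = 6.65e-05) at 312 ± 91.6, with 766 ± 117 in cortex and 526 ± 58.9 in endodermis, an order unlike that of NAI1, NAI2 and BGLU25.

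The other beta-glucosidases whose symbol begins with BGLU included none with both its highest mean in epidermis and its lowest in endodermis. Besides BGLU25, 19 were named, 7 passed the filter and all 7 differed among populations in limma's F test, beside 82.2% of all tested probe sets. Of these 7, BGLU42 was the one with its highest mean in epidermis (497 ± 105, higher by 0.64, adjusted p = 0.00772 in limma). BGLU16 was the one of the 7 with its lowest in endodermis (386 ± 154, lower at -1.14 on the log2 scale, adjusted p = 0.00128 in limma). PYK10 (BGLU23), described above, is not among the 7, since its symbol in the annotation does not begin with BGLU. It too had its lowest mean in endodermis (1332 ± 242, lower at -2.34 on the log2 scale, adjusted p = 1.8e-09 in limma). BGLU45 and BGLU40 reached the filter value in 3 arrays only by counting those of their highest population, cortex and endodermis, so a difference among populations was built into their selection. In epidermis 1 of the 7 was higher and 4 were lower (25.9% and 25.9% of all tested probe sets), and in endodermis 2 were higher and 1 was lower (23.2% and 19.9% of all). BGLU45 and BGLU40 are among those counted as differing and as lower in epidermis, and BGLU40 also among those higher in endodermis. BGLU46, which acts on lignin precursors, was close to the reverse of BGLU25. It averaged 79.7 ± 46.3 in epidermis (SD, n = 4), 258 ± 97.7 in columella, 590.1 ± 115 in cortex, 682 ± 257 in endodermis and 339.6 ± 48.4 in stele (SD, n = 3 each), lower in epidermis at -2.38 on the log2 scale (SE 0.26, adjusted p = 8.66e-07) and higher in endodermis by 1.37 (adjusted p = 0.000983). BGLU45, which acts on the same substrates, read 77.3, 57.5 and 71.9 in cortex, and at most 42.9 on the other 13 arrays. BGLU15 was lower in columella at -2.53 on the log2 scale (adjusted p = 6.72e-08) at 101 ± 26.3. The ER body beta-glucosidases BGLU19, BGLU20 and BGLU24 had means of at most 24.5 in every population and were not tested.

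Neighbouring genes on the chromosome were looked up by their order in RefSeq's table of assembly TAIR10.1. The next gene to NAI1 on one side is BHLH19, described above, whose log2 levels correlated with those of NAI1 at 0.53 over the 16 arrays. The next tested genes to NAI2 were AT3G15940, at 0.18, and AT3G15970, 2 genes away on the other side, at 0.31. AT3G15940 averaged 313 ± 47.1 in epidermis (SD, n = 4), 306 ± 80.3 in cortex, 294 ± 17.7 in endodermis and 144 ± 21.8 in columella (SD, n = 3 each), and was lower in columella at -0.84 on the log2 scale (adjusted p = 0.000728 in limma). AT3G15970 did not pass the F test (adjusted p = 0.23). In endodermis, where NAI2 was lowest, AT3G15940 was at 0.39 and AT3G15970 at -0.28 against the mean of the other 4 (adjusted p = 0.08 and 0.45 in limma). None of the 4 nearest genes to BGLU25 was tested.

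The genes whose log2 levels were most like those of each of the 3 were ranked by Pearson correlation over the 16 arrays, which share populations, among the named genes that passed the filter. The highest for NAI1 were PUB23 at 0.93, AT2G24170 at 0.93, ACS at 0.93, AT2G34840 at 0.91 and APM1 at 0.91, where the 95th percentile of all named probe sets was 0.70. PUB23, a ubiquitin ligase, averaged 2296 ± 521 in epidermis, 1997 ± 101 in columella and 686 ± 249 in endodermis. The highest for NAI2 were JAL34 at 0.96, and AT3G20370, AT4G26470, AT1G54890 and AT5G41800, each at 0.95 (95th percentile 0.68). AT3G20370 read 3008 in cortex replicate 1 and 5200.0 and 4809 in the other cortex arrays, and AT4G26470 read 111, 439.8 and 482, so both were lowest in the array that was low for NAI2. The highest for BGLU25 were EXPA9 and AT4G32870 at 0.97, GER2 at 0.96, and AT1G05280 and AT4G01410 at 0.95 (95th percentile 0.73). EXPA9, an expansin that loosens cell walls, averaged 1049.8 ± 348 in epidermis, 1587 ± 534 in columella, 306 ± 99.1 in cortex, 62.5 ± 17.3 in endodermis and 107 ± 54.7 in stele. ACS, an acetyl-CoA synthetase, was among the 3 nearest genes with a symbol for all 3, at 0.93 for NAI1, 0.92 for NAI2 and 0.94 for BGLU25, and averaged 3791 ± 843 in epidermis, 3016 ± 330.4 in columella, 2076 ± 280.1 in cortex, 858 ± 68.1 in endodermis and 1504 ± 253 in stele. These genes were picked for their likeness, and their levels are a description.

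**Figure D5:**
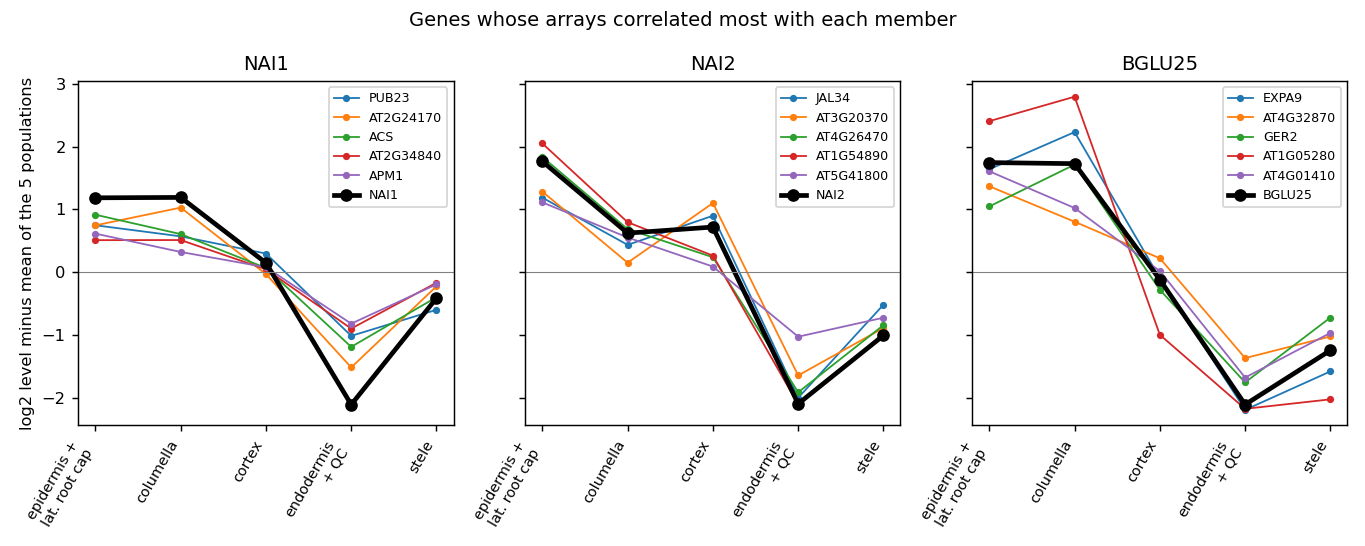
Mean log2 level in each population minus the mean of the 5 populations, for NAI1, NAI2 and BGLU25 (thick black lines) and the 5 named genes that correlated most with each over the 16 arrays (thin lines). Endodermis is the lowest population on every line, and the lines peak in epidermis or columella.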

How the data were processed

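RNA of 16 samples was measured on Affymetrix arrays after amplification in 2 cycles, per the labels' protocols. The authors deposited 1 intensity value per probe set and array, a linear MAS5 signal per the submitters' processing notes (version not given in the sources used here). Trimmed means (2%) of the 16 arrays differed by 0.00258%, so the scaling was kept, and 0 of 120 pairs of arrays were identical. Whether replicates were separate cultures is not stated in the labels, and p-values then reflect only how these samples vary, which may be technical. No batch labels or detection calls were at hand.

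After leaving out 64 controls, log2(signal + 10.21) was computed, 10.21 being the 20th percentile of the table. This understates changes of low genes. Probe sets at or above 38.05 (the 40th percentile) in at least 3 arrays were tested, which left 16221. limma 3.58.1 in R 4.3.3 fitted a mean per population to all 16 arrays (lmFit, contrasts.fit, and eBayes with its trend option, leaving 11 residual degrees of freedom). Benjamini-Hochberg adjustment of 2-sided p-values ran over all tested probe sets of a contrast, with a threshold of 0.05. The fit was tested on simulated data. Figures used Python 3.11.15 and matplotlib 3.10.9.

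The members and gene lists were chosen with earlier results of these data known. Named genes are the members, every listed gene named singly and passing the filter, every symbol beginning with BGLU, and for each member the 5 named genes with the highest correlation and the 3 such with a symbol. Where a gene had several probe sets the brightest was to stand for it, which applied to 0 genes of the lists. Of the probe sets, 13513 carry 1 gene in the annotation, 503 carry several, from which nothing was named, and 8794 are unnamed. JAL20, BHLH18, BHLH19, BHLH25, CNX2, RCPG, CO2 and SGN1 are usual names for loci given in the annotation as locus tags only. The lists covered other ER body genes, beta-glucosidases of ER bodies, the PYK10 complex, relatives of NAI1, indole glucosinolate synthesis, other myrosinases (TGG6 was named and not tested), ER chaperones, ER retention and shape (none named), jasmonate and other root beta-glucosidases. Alternatives were quantile normalization, other pseudocounts and filters, a fit without the trend, weighted arrays, a block for replicate numbers and the omission of single arrays (24 in all).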

Additional observations from a re-analysis of the deposited data

Results flagged for a closer look

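In epidermis, the population with 4 arrays, 3 of 25 genes had 1 array whose distance to the nearest other array exceeded the 95% critical value of Dixon's test. BHLH19 read 80.3 in epidermis replicate 3, the lowest, with the other epidermis arrays between 200.4 and 206. UGT74B1 read 449 in epidermis replicate 4, the highest, with the others between 264 and 268. BGLU46 read 148 in epidermis replicate 4, the highest, with the others between 46.8 and 63.8. NAI1, NAI2 and BGLU25 had no such array. Chance alone gives such a ratio in some groups at this level, and 2 of the 3 lie in the array that stood apart from its group.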

How the results depend on the processing

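Over the 24 alternatives NAI1 ran from 1.18 to 1.63 in epidermis and in columella, both low ends with a pseudocount of 50, and from -3.20 (without endodermis replicate 2) to -1.86 in endodermis, against the mean of the other 4 populations. In cortex the sign is not settled for NAI1 (-0.04 to 0.47) or BGLU25 (-0.31 to 0.07); the other 13 of the 15 values of the 3 genes kept their sign. Epidermis minus the next population was -0.11 to 0.14 (log2) for NAI1, 0.61 to 1.28 for NAI2 and -0.13 to 0.13 for BGLU25 when single arrays were left out, and -0.04 to 0.03, 0.83 to 1.21 and 0.01 to 0.10 under the others. For NAI1 and BGLU25 the sign of this difference is therefore not settled. Both ends for NAI2 came from cortex, 0.61 without replicate 1 and 1.28 without replicate 2.

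Of the listed genes, 15 passed the F test, and 13 to 16 under alternatives. The 3 lower in epidermis became 5 with array weights, with the replicate block and without epidermis replicate 4 (3 to 5 over single arrays left out). The added ones, BZIP60 and BZIP28, had adjusted p = 0.0166 and 0.0405 with the replicate block. Only epidermis has a replicate 4, so the block sets that array aside, and its estimates were those without epidermis replicate 4 (-0.64 and -0.44). These settings are therefore not separate checks. The 2 lower in columella became 1 with a pseudocount of 1 and after filtering at the 60th percentile (1 to 3 leaving out single arrays, 1 without columella replicate 1 or 3). The 1 higher in endodermis became 2 without the filter. The 3 higher in stele became 0 without stele replicate 1 or 3 (0 to 3). The 10 lower in endodermis were 7 without endodermis replicate 2 and 9 to 11 under alternatives that kept all arrays. Of 110 comparisons of single genes with the mean of the other 4 populations, 59 were called. Of these, 40 kept call and sign under every alternative, 19 lost the call under at least 1 and 0 turned in sign. Of the 51 not called, 12 gained a call and 17 turned in sign under at least 1.

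Replicate numbers did not pair arrays: 30 pairs of the same number correlated at -0.26 to 0.24 after removing population means (median 0.0045), and the block is therefore no firmer than the unblocked fit. Averaging several probe sets per gene was not run, since each listed gene had 1. Signals near the low end limit NAI1 in endodermis, MYC4 in endodermis and JAL22 outside cortex.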
